A study of Mus musculus with 9 samples.

Results

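Prostaglandins, thromboxane and leukotrienes are lipid mediators made from arachidonic acid, and 10 genes of their synthesis and breakdown were followed in transplanted mouse lungs: Ptgs1, Ptgs2, Ptges, Ptgis, Tbxas1, Ptgds, Hpgd, Alox5, Alox5ap and Alox15. They were found by symbol among the 23944 genes of the deposited tables, and all 10 passed the filter on low counts that left 15834 genes for testing. Left lungs of wild-type adult C57BL/6 mice were grafted into Balb/C mice, so blood cells of the recipient could enter a graft. Shock grafts (3 libraries) came from donors held for 4 h in hypovolemic shock at a mean arterial pressure of 15 ± 5 mmHg, which then recovered for 20 h before the lung was stored for 24 h at 0 °C and reperfused for 2 h. Cold-ischemia grafts (3 libraries) had the same storage and reperfusion without donor shock, and naive lungs (3 libraries) were left lungs of C57BL/6 mice that were not transplanted.

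Arachidonic acid freed from membranes by phospholipases A2 is turned by the cyclooxygenases Ptgs1 and Ptgs2 into an unstable endoperoxide, which terminal synthases convert into prostaglandins, prostacyclin or thromboxane. In a separate branch the lipoxygenase Alox5, with its partner Alox5ap, makes the leukotriene precursor. In the lung these mediators act on vessel tone, permeability and the recruitment of leukocytes, and Hpgd inactivates prostaglandins there. In mm10 coordinates of the deposited tables, Ptgs2 lies on chromosome 1 from 150100031 to 150108227 (plus strand), Hpgd on chromosome 8 from 56294552 to 56321046 (plus), Alox5ap on chromosome 5 from 149265058 to 149288045 (plus) and Alox5 on chromosome 6 from 116410077 to 116461178 (minus). Ptgs1, Ptges, Ptgis and Ptgds lie apart from each other on chromosome 2, Tbxas1 on chromosome 6 and Alox15 on chromosome 11, and all 10 are protein-coding genes.

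Each library held 18913487 to 34986276 reads counted to genes, and the lung markers Sftpc, Sftpb, Scgb1a1, Ager and Cldn5 were present in every library. The titles of 2 graft libraries, cold-ischemia replicate 2 and shock replicate 3, disagree with the deposited tables, which place each in the opposite graft group. Libraries were grouped by title, results that rest on these 2 are given also without them, and the grafts of both groups together were set against naive lungs because that comparison holds the same 6 grafts under either grouping. It averages the 2 graft group means, so its estimates and spread still depend on the grouping. All genes called in it numbered 6620 under the titles and 7344 under the tables' grouping. The labels of the 3 naive libraries, and of no graft, also cite a record of another series, so a batch and the graft state cannot be told apart. The titles do not name animals, so p-values measure the spread between these samples, which may be technical. The summed level of 11 neutrophil markers was 1794 to 3152 CPM (reads scaled to the TMM-adjusted size of the library) in shock grafts and 1125 to 2119 CPM in cold-ischemia grafts, against 60.8 to 86.2 CPM in naive lungs.

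Ptgs2, Ptges, Alox5 and Alox5ap were higher and Hpgd was lower in the grafts than in naive lungs, and Ptgs1, Ptgis, Tbxas1, Ptgds and Alox15 did not pass the test. Ptgs2 and Ptges, which act one after the other in the synthesis of prostaglandin E, had the largest differences of the 10, at 34.8-fold and 12.9-fold. Calls were made at an adjusted p under 0.05 by edgeR's quasi-likelihood test with Benjamini-Hochberg adjustment over all genes tested. Of the 10 genes, 4 rose and 1 fell in grafts, where 22.1% of all genes tested rose and 19.7% fell. The median log2 fold change was 0.62 over the 10 genes and -0.05 over all genes. The median of the 10 falls between Ptgds (0.61) and Alox15 (0.62), which are low in reads and were not called. It therefore does not show a shift of the pathway as a whole. The 6 grafts did not overlap with the 3 naive lungs for 5 of the 10 genes, a state that held for 40.9% of all genes, so that count is near the background.

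**Figure D1:**
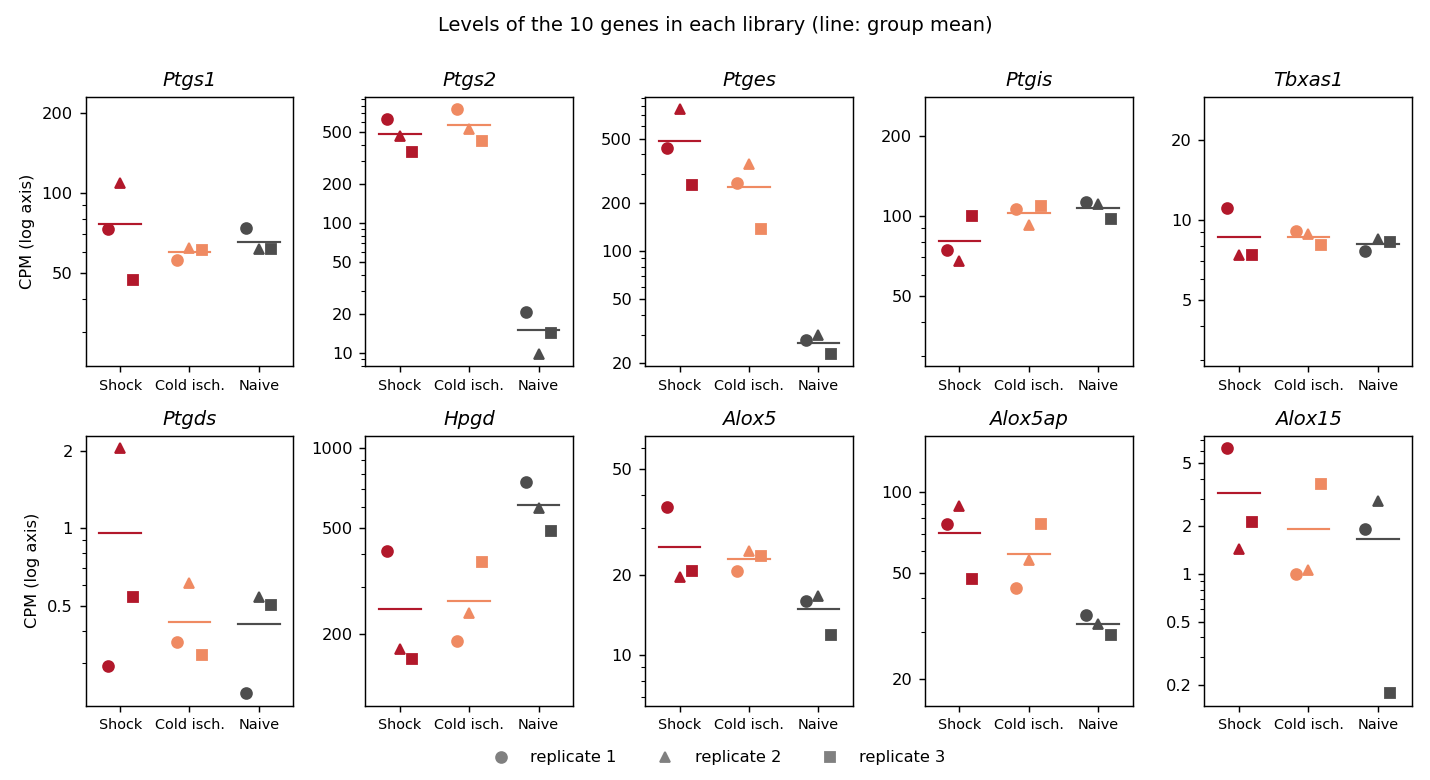
CPM of each of the 10 genes on log axes, 1 point per library, with shock grafts in red, cold-ischemia grafts in orange and naive lungs in grey; lines are group means and shapes are replicate numbers. Ptgs2 lies at 351 to 754 CPM in the grafts, against 9.86 to 20.9 CPM in naive lungs, and Hpgd is the one gene with every graft below every naive lung.

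Ptgs2 encodes the inducible cyclooxygenase, and its level rose most of the 10 genes. In replicates 1 to 3, in this order here and throughout, Ptgs2 had 633, 464 and 351 CPM in shock grafts, 754, 528 and 424 CPM in cold-ischemia grafts, and 20.9, 9.86 and 14.3 CPM in naive lungs. Every graft was far above every naive lung, and the shock and cold-ischemia grafts overlapped. In grafts against naive lungs the log2 fold change was 5.12 ± 0.35 (SE, n = 6 and 3, edgeR adjusted p = 2.91e-06). It was 5.00 ± 0.36 in shock grafts (edgeR adjusted p = 4.74e-06) and 5.24 ± 0.37 in cold-ischemia grafts (edgeR adjusted p = 4.52e-06), each against the same 3 naive lungs. The call held under every alternative tried.

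Ptgs1 encodes the cyclooxygenase that most tissues make constitutively. Its levels were 73.4, 108.7 and 47.3 CPM in shock grafts, 56.2, 62.2 and 61.2 CPM in cold-ischemia grafts, and 73.8, 61.9 and 61.5 CPM in naive lungs. Shock grafts held both the highest and the lowest library, and the groups overlapped. The log2 fold change in grafts against naive lungs was 0.04, with a 95% interval of -0.42 to 0.51 (edgeR adjusted p = 0.891). Its sign turned under upper-quartile scaling, to -0.16.

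The balance of both cyclooxygenases was read from FPKM as deposited, which is scaled to the length of the gene and the size of the library. Ptgs2 made up 84.7, 73.3 and 82.7% of the summed FPKM of Ptgs1 and Ptgs2 in shock grafts and 89.6, 84.5 and 81.7% in cold-ischemia grafts, against 15.4, 9.31 and 13.0% in naive lungs. Ptgs2 was thus the higher of the pair in all 6 grafts and the lower in all 3 naive lungs. The FPKM ratio of Ptgs2 to Ptgs1 averaged 4.36 ± 1.45 in shock grafts and 6.18 ± 2.17 in cold-ischemia grafts, against 0.145 ± 0.040 in naive lungs (SD, n = 3 each).

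Ptges encodes the inducible microsomal synthase of prostaglandin E. It had 438, 765 and 257 CPM in shock grafts, 266, 346 and 136 CPM in cold-ischemia grafts, and 27.9, 30.1 and 22.9 CPM in naive lungs. Every graft exceeded every naive lung, and the grafts ran over a 5.61-fold range with shock replicate 2 on top. Grafts gave a log2 fold change against naive lungs of 3.69 ± 0.41 (SE, edgeR adjusted p = 6.36e-05). It was 4.18 ± 0.44 in shock grafts (edgeR adjusted p = 5.53e-05) and 3.21 ± 0.42 in cold-ischemia grafts (edgeR adjusted p = 0.00029), and these calls held under every alternative tried. A pseudogene on the same strand, Gm13400, overlaps Ptges and had 0 to 13 reads per library.

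The promoters of Ptgs2 and Ptges, the pair that rose most, and of Hpgd, which fell, run from 250 bases before to 50 bases after the RefSeq start site in GRCm38.p6, 5′ to 3′ on the strand of the gene. Capitals mark matches to any of 6 short motifs searched on both strands, with N for any base. The letters were TATAAA for the element bound by the TATA-binding protein, TGACGTCA for the cyclic AMP response element (CRE), TGANTCA for the sites of Fos and Jun (AP-1), GGNNTTTCC for those of NF-kB, TTNNGNAA for those of the C/EBP family, and CANNTG for the E-box. Matches of different motifs could overlap, and 1 base can then be marked for more than 1 of them.
Ptgs2, chr1:150099781-150100080, plus strand: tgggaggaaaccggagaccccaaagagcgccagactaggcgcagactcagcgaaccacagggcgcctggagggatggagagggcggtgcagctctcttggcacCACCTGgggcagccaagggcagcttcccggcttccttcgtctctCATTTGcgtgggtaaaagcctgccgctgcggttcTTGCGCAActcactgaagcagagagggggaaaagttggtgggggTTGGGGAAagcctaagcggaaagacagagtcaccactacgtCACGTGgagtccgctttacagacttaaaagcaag
Ptges, chr2:30903248-30903547, minus strand: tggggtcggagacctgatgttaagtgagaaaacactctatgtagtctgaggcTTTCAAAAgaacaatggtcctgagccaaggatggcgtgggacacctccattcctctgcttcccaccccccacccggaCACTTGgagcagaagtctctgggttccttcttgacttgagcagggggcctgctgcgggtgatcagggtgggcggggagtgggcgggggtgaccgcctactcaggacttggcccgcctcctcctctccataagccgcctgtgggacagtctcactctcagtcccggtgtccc
Hpgd, chr8:56294302-56294601, plus strand: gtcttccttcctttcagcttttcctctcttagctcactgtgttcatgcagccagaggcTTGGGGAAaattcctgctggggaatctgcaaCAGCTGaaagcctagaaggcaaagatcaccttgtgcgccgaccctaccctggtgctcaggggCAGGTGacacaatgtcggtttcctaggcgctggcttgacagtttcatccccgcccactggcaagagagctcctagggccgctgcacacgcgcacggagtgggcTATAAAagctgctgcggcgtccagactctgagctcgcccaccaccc
The Ptgs2 window held 2 C/EBP matches, TTGCGCAA at 69 and TTGGGGAA at 25 bases before the start, and 3 E-boxes, among them CACGTG just after the start. The Ptges window held 1 C/EBP match and 1 E-box. Hpgd held 1 TATA box match, which lies 4 bases after the start and not before it, 1 C/EBP match, spelled TTGGGGAA as in Ptgs2, and 2 E-boxes. No match to the CRE, AP-1 or NF-kB letters was in these 3 windows, and none to the TATA box in Ptgs2 or Ptges, which says only that those letters are not there. Of 32851 promoters in the RefSeq table, 40.7% held a C/EBP match, 72.3% an E-box, 13.6% a TATA box, 7.81% an AP-1 match, 5.82% an NF-kB match and 1.79% a CRE. Of the 10 genes, 7 had a promoter in the table. The span that the deposited tables give Ptges, on chromosome 2 from 30889471 to 30929863, reaches beyond this start site.

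Ptgis, the prostacyclin synthase of vessel walls, had 74.7, 67.9 and 100.1 CPM in shock grafts, 106, 92.2 and 108.8 CPM in cold-ischemia grafts, and 113, 111 and 97.3 CPM in naive lungs. Shock replicates 1 and 2 were the lowest, and shock replicate 3 lay inside the range of the naive lungs. The log2 fold change was -0.40 ± 0.16 (SE) in shock grafts (edgeR adjusted p = 0.0669) and -0.06 ± 0.16 in cold-ischemia grafts (edgeR adjusted p = 0.804), each against naive lungs. The shock value passed the threshold under upper-quartile scaling, under the tables' grouping, without shock replicate 3 and without the 2 libraries of disputed group (-0.58, edgeR adjusted p = 0.00879). In all grafts against naive lungs Ptgis gave -0.23 ± 0.14 (edgeR adjusted p = 0.195), and this passed under upper-quartile scaling (-0.44, edgeR adjusted p = 0.0259) and without shock replicate 3 (-0.32, edgeR adjusted p = 0.0425). Beside it, the summed level of 6 smooth muscle markers was 474, 325 and 875 CPM in shock grafts and 762 to 803 CPM in cold-ischemia grafts, against 633 to 783 CPM in naive lungs. Of these 6 markers 1 rose and 0 fell in grafts, where 22.1% of all genes tested rose and 19.7% fell. The sum of 9 endothelial markers was 4854, 2867 and 4785 CPM in shock grafts, another order than that of Ptgis. It was 4366 to 4584 CPM in cold-ischemia grafts and 4378 to 4751 CPM in naive lungs. The part of these cells was not tested. In whole tissue, fewer cells of a type and less RNA per cell cannot be told apart.

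Tbxas1 makes thromboxane, the platelet agonist and vasoconstrictor. It had 11.1, 7.37 and 7.36 CPM in shock grafts, 9.07, 8.89 and 8.03 CPM in cold-ischemia grafts, and 7.67, 8.504 and 8.27 CPM in naive lungs. Only shock replicate 1 stood above the other libraries, and the groups overlapped. The log2 fold change in grafts was 0.09, with a 95% interval of -0.30 to 0.48 (edgeR adjusted p = 0.72), and was -0.12 under upper-quartile scaling. Tbxas1 lies across Hipk2 on the opposite strand, which had 2805 to 5698 reads per library against 148 to 327 for Tbxas1, and without a stated strand setting their shared reads cannot be parted.

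Ptgds, a synthase of prostaglandin D, was near the limit of these libraries, with 7 to 41 reads in each. Shock grafts had 0.293, 2.04 and 0.542 CPM and cold-ischemia grafts 0.363, 0.615 and 0.323 CPM, against 0.229, 0.543 and 0.506 CPM in naive lungs. Shock replicate 2 alone was above 1 CPM. The log2 fold change in shock grafts, 1.16 ± 0.68 (SE, edgeR adjusted p = 0.199), was -0.02 without that library.

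Among the terminal synthases, Ptges averaged 122 ± 64.2 FPKM in shock grafts and 64.0 ± 26.9 FPKM in cold-ischemia grafts, against 8.59 ± 1.33 FPKM in naive lungs (SD, n = 3 each). Ptgis averaged 35.3 ± 8.01 and 45.6 ± 4.25 FPKM in shock and cold-ischemia grafts, against 59.0 ± 5.96 FPKM in naive lungs. FPKM lacks the TMM factors, which were 0.90 to 0.97 in grafts and 1.13 to 1.18 in naive lungs. It therefore sets grafts lower against naive lungs than CPM does. In FPKM Ptgis did not overlap, at 29.5 to 49.8 in grafts and 52.2 to 63.3 in naive lungs, whereas its CPM overlapped and did not pass the test. Ptges thus stood above Ptgis in 5 of 6 grafts, cold-ischemia replicate 3 being the exception, and below it in all 3 naive lungs. The FPKM ratio of Ptges to Ptgis was 3.39, 6.51 and 1.48 in shock grafts and 1.45, 2.17 and 0.724 in cold-ischemia grafts, against 0.143, 0.157 and 0.136 in naive lungs. Tbxas1 was at 1.48 to 2.20 FPKM in grafts and 1.99 to 2.18 FPKM in naive lungs.

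**Figure D2:**
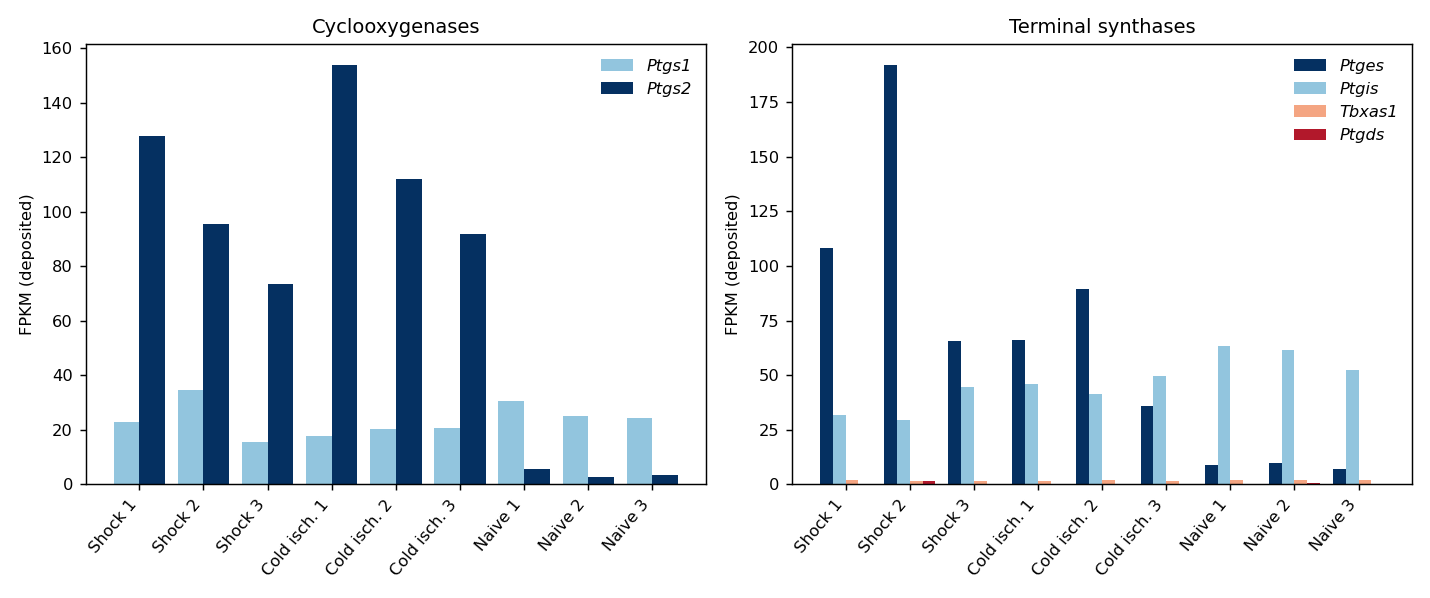
Deposited FPKM in each library for the cyclooxygenases (left) and the terminal synthases (right), 1 bar per gene and library. Ptgs2 exceeds Ptgs1 in the 6 grafts and lies under it in the 3 naive lungs, and Ptges reaches 36.1 to 192 FPKM in the grafts, against 7.09 to 9.64 FPKM in naive lungs.

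Hpgd encodes hydroxyprostaglandin dehydrogenase, which inactivates prostaglandins and for which the lung is a known site. It had 410.5, 176 and 161 CPM in shock grafts, 189, 240.2 and 372.5 CPM in cold-ischemia grafts, and 741, 597 and 489 CPM in naive lungs. Every graft lay below every naive lung, with shock replicate 1 and cold-ischemia replicate 3 the nearest to them. In grafts the log2 fold change against naive lungs was -1.24 ± 0.30 (SE, edgeR adjusted p = 0.00754), a level 2.36-fold lower. It was -1.29 ± 0.37 in shock grafts (edgeR adjusted p = 0.0177) and -1.19 ± 0.37 in cold-ischemia grafts (edgeR adjusted p = 0.0312). Without the 2 libraries of disputed group these became -1.05 (edgeR adjusted p = 0.0624) and -1.12 (edgeR adjusted p = 0.0729), and neither passed. The cold-ischemia call was also lost without cold-ischemia replicate 1 (-0.99) or 2 (-1.12) or naive replicate 1 (-1.03) or 2 (-1.20), at edgeR adjusted p-values of 0.0709 to 0.112, and the shock call without naive replicate 1 (-1.14) or shock replicate 2 (-1.09). Beside this fall, the summed level of 7 mesothelial markers was 31.4 to 61.9 CPM in shock grafts and 31.5 to 82.8 CPM in cold-ischemia grafts, against 248.6 to 306.8 CPM in naive lungs. Of the 7 mesothelial markers 0 rose and 7 fell in grafts. Of 9 endothelial markers 1 rose and 3 fell in grafts, and of 7 alveolar type 2 markers 0 rose and 2 fell. Among all genes tested 22.1% rose and 19.7% fell. In naive lungs the endothelial sum was 4378 to 4751 CPM. It was 2867 to 4854 CPM in shock grafts and 4366 to 4584 CPM in cold-ischemia grafts. The alveolar type 2 sum was 23350 to 25980 CPM in naive lungs. It was 18060 to 23520 CPM in shock grafts and 21740 to 25660 CPM in cold-ischemia grafts. The part of any of these cell types in the fall of Hpgd was not tested.

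In FPKM, Hpgd was the most abundant of the 10 genes in each group, at 132 ± 71.7 in shock grafts and 147 ± 56.2 in cold-ischemia grafts, against 412 ± 94.3 in naive lungs (SD, n = 3 each). FPKM lacks the TMM factors, so the size of the fall is to be read from the CPM and the test. In naive lungs Hpgd, Ptgis, Alox5ap, Ptgs1 and Ptges followed each other with no overlap between neighbours, and Ptgs2 was 7th at 3.92 FPKM, overlapping with Alox5. In shock grafts the libraries of Hpgd, Ptges, Ptgs2 and Alox5ap overlapped with their neighbours in that order, so these 4 were not separated. In cold-ischemia grafts Hpgd and Ptgs2 overlapped, and Ptgs2 stood clear of Alox5ap, Ptges and Ptgis, which overlapped in turn. The FPKM ratio of Ptgs2 to Hpgd was 0.595, 1.02 and 0.839 in shock grafts and 1.54, 0.848 and 0.439 in cold-ischemia grafts, against 0.0109, 0.00638 and 0.0113 in naive lungs.

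Alox5ap, the membrane protein that presents arachidonic acid to Alox5, had 75.8, 88.4 and 47.1 CPM in shock grafts, 43.8, 55.7 and 75.8 CPM in cold-ischemia grafts, and 34.6, 32.1 and 29.2 CPM in naive lungs. Every graft exceeded every naive lung. Grafts had a log2 fold change of 1.00 ± 0.22 (SE, edgeR adjusted p = 0.00437). It was 1.14 ± 0.25 in shock grafts (edgeR adjusted p = 0.00446) and 0.87 ± 0.25 in cold-ischemia grafts (edgeR adjusted p = 0.0214). The cold-ischemia call was lost under upper-quartile scaling (0.69, edgeR adjusted p = 0.054) and without cold-ischemia replicate 3 (0.64), naive replicate 2 (0.87) or naive replicate 3 (0.81).

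Alox5, the lipoxygenase that begins leukotriene synthesis in leukocytes, had 36.1, 19.6 and 20.6 CPM in shock grafts, 20.7, 24.7 and 23.4 CPM in cold-ischemia grafts, and 16.0, 16.7 and 11.9 CPM in naive lungs. The grafts did not overlap with the naive lungs, and shock replicate 1 stood above the other grafts. In grafts the log2 fold change was 0.70 ± 0.21 (SE, edgeR adjusted p = 0.0219). It was 0.78 ± 0.24 in shock grafts (edgeR adjusted p = 0.0255) and 0.63 ± 0.24 in cold-ischemia grafts (edgeR adjusted p = 0.0711), so only the shock value passed, and the direct comparison of the 2 graft groups gave 0.15 ± 0.24 (edgeR adjusted p = 0.864). The call in grafts was lost under upper-quartile scaling (0.50, edgeR adjusted p = 0.0785) and without naive replicate 1 (0.75, edgeR adjusted p = 0.0549) or 3 (0.56, edgeR adjusted p = 0.101), and the shock call was lost in these 3 cases, without shock replicate 1 (0.44, edgeR adjusted p = 0.0982) and with the compared libraries alone (0.77, edgeR adjusted p = 0.052). The cold-ischemia value passed under DESeq2, with the compared libraries alone and without shock replicate 1 or 2 (0.63 in both cases), at edgeR or DESeq2 adjusted p-values of 0.0137 to 0.0469.

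Alox5 and Alox5ap were higher in the grafts, as were the neutrophil markers, whose summed level was 2677, 3152 and 1794 CPM in shock grafts and 1125, 1318 and 2119 CPM in cold-ischemia grafts, against 86.2, 60.8 and 78.9 CPM in naive lungs. All 11 of these markers rose in grafts, with a median log2 fold change of 5.19. Within each graft group Alox5ap and the marker sum had the same order of libraries, but not within the naive lungs. Alox5 was lowest, among the grafts, in shock replicate 2, where the marker sum was highest. Of 10 alveolar macrophage markers 2 rose and 1 fell, where 22.1% of all genes tested rose and 19.7% fell. The part of any cell type in these values was not tested.

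Alox15, the lipoxygenase of lipoxin and hydroxy fatty acid synthesis, had 7 to 149 reads per library. It stood at 6.24, 1.44 and 2.12 CPM in shock grafts, 0.998, 1.07 and 3.69 CPM in cold-ischemia grafts, and 1.92, 2.89 and 0.177 CPM in naive lungs. The groups overlapped, and naive replicate 3 was the lowest library. The log2 fold change in grafts was 0.62, with a 95% interval of -1.04 to 2.29 (edgeR adjusted p = 0.534), which spans both directions.

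**Figure D3:**
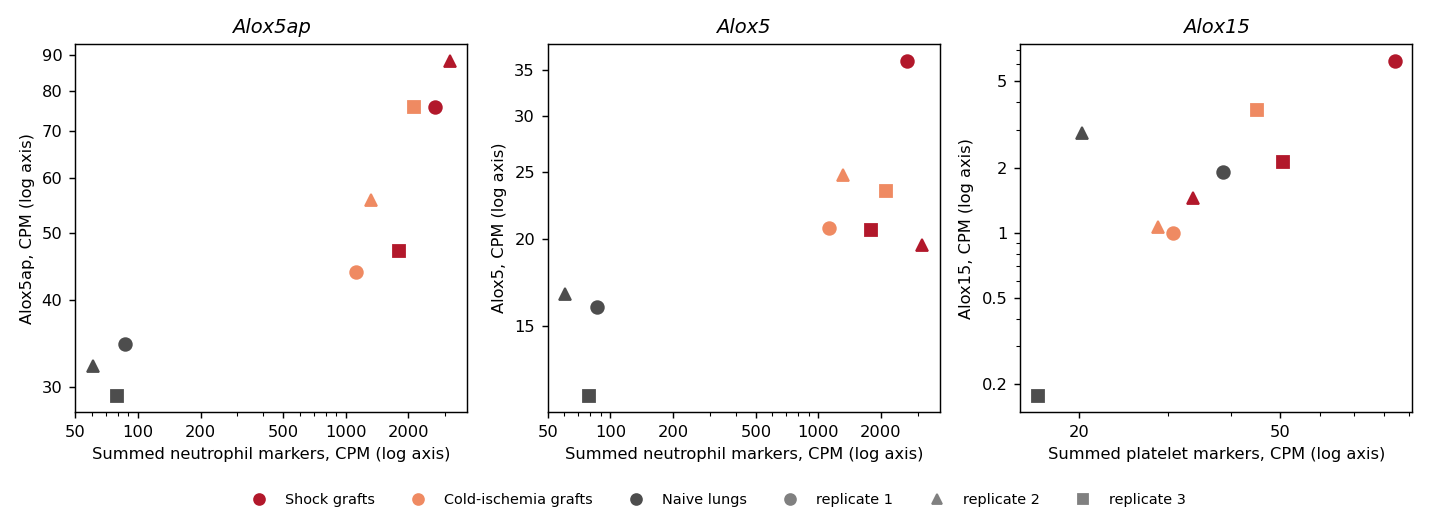
CPM of Alox5ap and Alox5 against the summed CPM of 11 neutrophil markers, and of Alox15 against that of 8 platelet markers, on log axes, 1 point per library. All grafts lie at 1125 CPM or more of neutrophil markers, against 86.2 CPM or less in naive lungs. Alox15 and the platelet markers are both highest in shock replicate 1. The platelet sum holds Ppbp and Itga2b, which are also among the genes found most like Alox15, so this match is a description only. Among naive lungs Alox15 is highest in replicate 2 and the platelet sum in replicate 1.

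The comparison of shock grafts with cold-ischemia grafts asked what donor shock adds to storage and reperfusion. None of the 10 genes was called, and edgeR called 0 of all 15834 genes (0.00%), with 1152 at an unadjusted p under 0.05, while DESeq2 called 8. The median log2 fold change was 0.21 over the 10 genes and 0.01 over all genes. Ptges had the lowest unadjusted p of the 10 genes, with a log2 fold change of 0.96 ± 0.39 (SE), a 95% interval of 0.10 to 1.83 and an edgeR adjusted p of 0.671. The groups overlapped, at 257 to 765 CPM in shock grafts and 136 to 346 CPM in cold-ischemia grafts. The value ranged with the libraries used, being 0.48 without shock replicate 2, 1.23 under the tables' grouping (edgeR adjusted p = 0.0847) and 1.58 without the 2 libraries of disputed group (edgeR adjusted p = 0.085). The authors' deposited table, with the authors' own grouping, gives 0.96 with an adjusted p of 0.0139. This is not the same measure as the 0.96 under the titles, because the groups differ, and edgeR gave 1.23 under the tables' grouping.

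For Ptgs2 the shock to cold-ischemia log2 fold change was -0.24, with a 95% interval of -0.91 to 0.44, and it turned to 0.09 under the tables' grouping. Hpgd gave -0.10, with an interval of -0.90 to 0.70, and turned to 0.20 under that grouping and to 0.06 without the 2 disputed libraries. Ptgis gave -0.34 (interval -0.69 to 0.01), Ptgs1 0.35 (interval -0.18 to 0.89) and Alox5ap 0.27 (interval -0.27 to 0.81). All of these intervals also hold changes as large as the 0.63 by which Alox5 differed between cold-ischemia grafts and naive lungs, so a miss of the threshold does not show that the graft groups were alike.

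Against the naive lungs that both comparisons share, 4 of the 10 genes rose and 1 fell in shock grafts, where 22.0% of all genes rose and 17.9% fell. In cold-ischemia grafts 3 rose and 1 fell, where 17.5% of all genes rose and 13.1% fell.

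**Figure D4:**
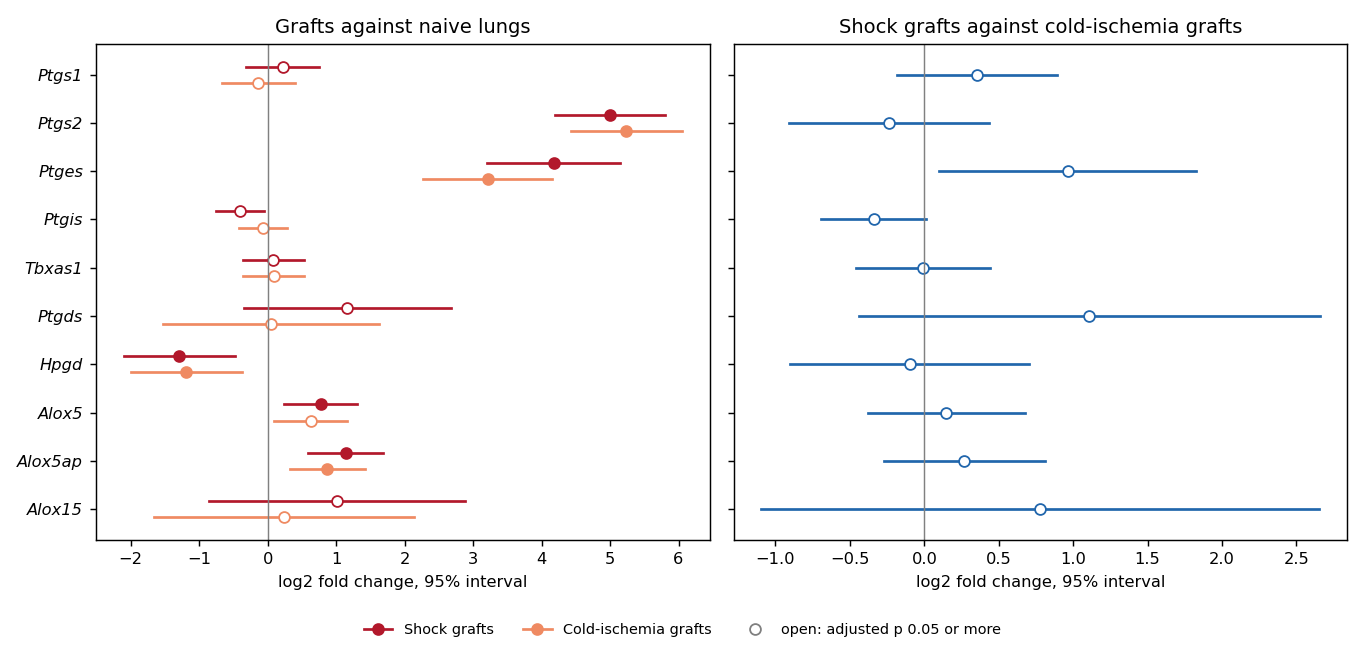
log2 fold changes with 95% intervals of the 10 genes in shock grafts (red) and cold-ischemia grafts (orange) against naive lungs (left) and in shock grafts against cold-ischemia grafts (right). Filled points passed an adjusted p of 0.05; Ptgs2 and Ptges lie at 3.21 to 5.24 on the left, and no point on the right is filled.

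Upstream and downstream genes of the pathway were taken from lists. The counts called in each list are to be read beside all genes tested, of which 22.1% rose and 19.7% fell in grafts. Most lists are too short to be set apart from these shares. Of 19 phospholipases A2, which free fatty acids from membranes, 10 were tested, 1 rose and 1 fell in grafts against naive lungs. Pla2g7, which breaks down platelet-activating factor, rose by a log2 fold change of 2.59 ± 0.30 (SE, edgeR adjusted p = 7.89e-05), at 54.0 ± 25.9 CPM in shock grafts and 33.5 ± 3.30 CPM in cold-ischemia grafts, against 7.06 ± 1.28 CPM in naive lungs (SD, n = 3 each). Pla2g15, a lysosomal phospholipase, fell by 0.69 on the log2 scale (edgeR adjusted p = 0.00131). Pla2g4a, the cytosolic enzyme that supplies cyclooxygenases and Alox5, gave -0.06 ± 0.13 (edgeR adjusted p = 0.729) and was chosen after its values were seen. The list's median was -0.23. Without the 2 libraries of disputed group Pla2g2d (-3.11) and Pla2g5 (-3.05), both low in reads, also passed as lower, as they did under the tables' grouping (-2.06 and -2.01). Pla2g1b passed as lower under upper-quartile scaling (-0.63, edgeR adjusted p = 0.0404).

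Of 8 other prostanoid synthases and reductases, all tested, 1 rose and 1 fell. Ptges3, the cytosolic cochaperone also described as a prostaglandin E synthase, rose by 1.09 ± 0.17 (log2 fold change and SE, edgeR adjusted p = 0.000485). Ptgr2, a reductase of prostaglandin breakdown downstream of Hpgd, fell by 0.64 on the log2 scale (edgeR adjusted p = 0.0199). Under TMM scaling Cbr1 (-0.65, edgeR adjusted p = 0.0435) and Fam213b (-0.74, edgeR adjusted p = 0.0463) were called lower in shock grafts against naive lungs. The Fam213b call was lost under RLE size factors (edgeR adjusted p = 0.0505). Neither gene differed between the graft groups (edgeR adjusted p = 0.685 and 0.671). In all grafts, under upper-quartile scaling, Cbr1 (-0.67), Fam213b (-0.62) and Akr1b3 (-0.48) passed as lower too. Cbr1 also passed under the tables' grouping (-0.49) and without the 2 disputed libraries (-0.42), and Akr1b3 under the tables' grouping (-0.29). Of 3 prostanoid transporters edgeR called none under TMM scaling, and at an edgeR adjusted p of 0.23, 0.419 and 0.148 Slco2a1, Slco3a1 and Abcc4 gave log2 fold changes of -0.31, -0.12 and 0.33. Under upper-quartile scaling Slco3a1 passed as lower in grafts (-0.32, edgeR adjusted p = 0.0355). Slco2a1, which brings prostaglandins into cells for breakdown, held 620.6 ± 201 CPM in shock grafts and 624 ± 128 CPM in cold-ischemia grafts, against 773 ± 76.9 CPM in naive lungs (SD, n = 3 each).

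Of 9 prostanoid receptors 8 were tested, 2 rose and 5 fell, where 22.1% of all genes tested rose and 19.7% fell. The list's median log2 fold change was -1.05, against -0.05 over all genes. Ptger4 (a prostaglandin E receptor that raises cyclic AMP) had 28.8, 14.2 and 54.3 CPM in shock grafts and 47.5, 32.7 and 28.5 CPM in cold-ischemia grafts, against 6.55, 7.69 and 6.68 CPM in naive lungs. Its log2 fold change was 2.30 ± 0.38 (SE, edgeR adjusted p = 0.000719), and every graft exceeded every naive lung. Ptgir, the prostacyclin receptor, had 32.8, 49.6 and 45.5 CPM in shock grafts and 38.6, 32.7 and 22.7 CPM in cold-ischemia grafts, against 8.61, 11.3 and 4.88 CPM in naive lungs. Its log2 fold change was 2.16 ± 0.29 (SE, edgeR adjusted p = 0.000199), again with no overlap.

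Tbxa2r, the thromboxane receptor, had 1.09, 1.59 and 1.76 CPM in shock grafts and 3.22, 1.72 and 3.05 CPM in cold-ischemia grafts, against 7.35, 11.1 and 12.6 CPM in naive lungs. It was lower in every graft than in any naive lung, with a log2 fold change of -2.38 ± 0.26 (SE, edgeR adjusted p = 5.2e-05). Ptgfr, the receptor of prostaglandin F, had 1.05, 0.947 and 8.18 CPM in shock grafts and 5.80, 2.09 and 2.91 CPM in cold-ischemia grafts, against 13.5, 24.6 and 16.4 CPM in naive lungs. Its log2 fold change was -2.38 ± 0.57 (SE, edgeR adjusted p = 0.00691), with no overlap. Ptger1, a prostaglandin E receptor that acts through calcium, fell by 0.60 on the log2 scale (edgeR adjusted p = 0.00777). Ptger3 and Ptgdr2 were also called lower, Ptgdr2 at under 0.1 CPM in each graft, and both were chosen after their values were seen. Ptger2 gave 0.06 (edgeR adjusted p = 0.835), and Ptgdr, with 4 reads in all, was not tested.

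Of 11 other genes of leukotriene synthesis and breakdown 10 were tested, and 3 rose and none fell by edgeR. Cyp4f18, which inactivates leukotriene B, rose by 2.01 ± 0.28 (log2 fold change and SE, edgeR adjusted p = 0.000243), at 31.3 ± 10.9 CPM in shock grafts and 25.1 ± 8.38 CPM in cold-ischemia grafts, against 6.95 ± 0.749 CPM in naive lungs (SD, n = 3 each). Abcc1, an exporter of cysteinyl leukotrienes, rose by 1.00 (edgeR adjusted p = 0.000827), and Cotl1, an actin-binding partner of Alox5, by 0.80 (edgeR adjusted p = 0.000393), both on the log2 scale. Lta4h, which makes leukotriene B, gave -0.22 (edgeR adjusted p = 0.184), and Ltc4s, with 51 reads in all, was not tested; both were chosen after their values were seen. Lta4h passed as lower under upper-quartile scaling (-0.43).

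Of 3 leukotriene receptors tested none was called in grafts by edgeR. Ltb4r1, the leukotriene B receptor of neutrophils, gave 0.53 (edgeR adjusted p = 0.252), Cysltr1 -0.68 (edgeR adjusted p = 0.0605) and Cysltr2 -0.76 (edgeR adjusted p = 0.114), all as log2 fold changes. Against naive lungs Cysltr1 fell by 0.99 on the log2 scale in shock grafts (edgeR adjusted p = 0.0298) and gave -0.37 in cold-ischemia grafts (edgeR adjusted p = 0.41), and the difference between the graft groups, -0.62, did not pass (edgeR adjusted p = 0.671). Under upper-quartile scaling Cysltr1 (-0.88) and Cysltr2 (-0.96) passed as lower in grafts. Ltb4r2 was not tested for its low counts, and Oxgr1 was on the list but has no row in the deposited tables. Of 5 other lipoxygenases 2 were tested: Aloxe3, an epidermal lipoxygenase, rose by 2.30 on the log2 scale (edgeR adjusted p = 0.00136), and Alox12, of platelets, gave 0.40 (edgeR adjusted p = 0.279). Alox12b, Alox12e and Alox8 were not tested for their low counts.

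Of 4 receptors of lipoxins and resolvins 2 rose and 1 fell. Fpr2, a formyl peptide and lipoxin receptor of myeloid cells, had 37.4, 78.4 and 35.1 CPM in shock grafts and 26.6, 20.9 and 31.0 CPM in cold-ischemia grafts, against 4.84, 6.11 and 4.02 CPM in naive lungs, a log2 fold change of 2.87 ± 0.31 (SE, edgeR adjusted p = 4.97e-05). Gpr18, described as a resolvin receptor, rose by 1.07 (edgeR adjusted p = 0.00232), and Cmklr1, the chemerin receptor, fell by 1.11 (edgeR adjusted p = 0.00451), both on the log2 scale. Lgr6, described as a maresin receptor, gave -0.77 (edgeR adjusted p = 0.238) and passed as lower under the tables' grouping (-0.98) and without the 2 disputed libraries (-1.23).

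**Figure D5:**
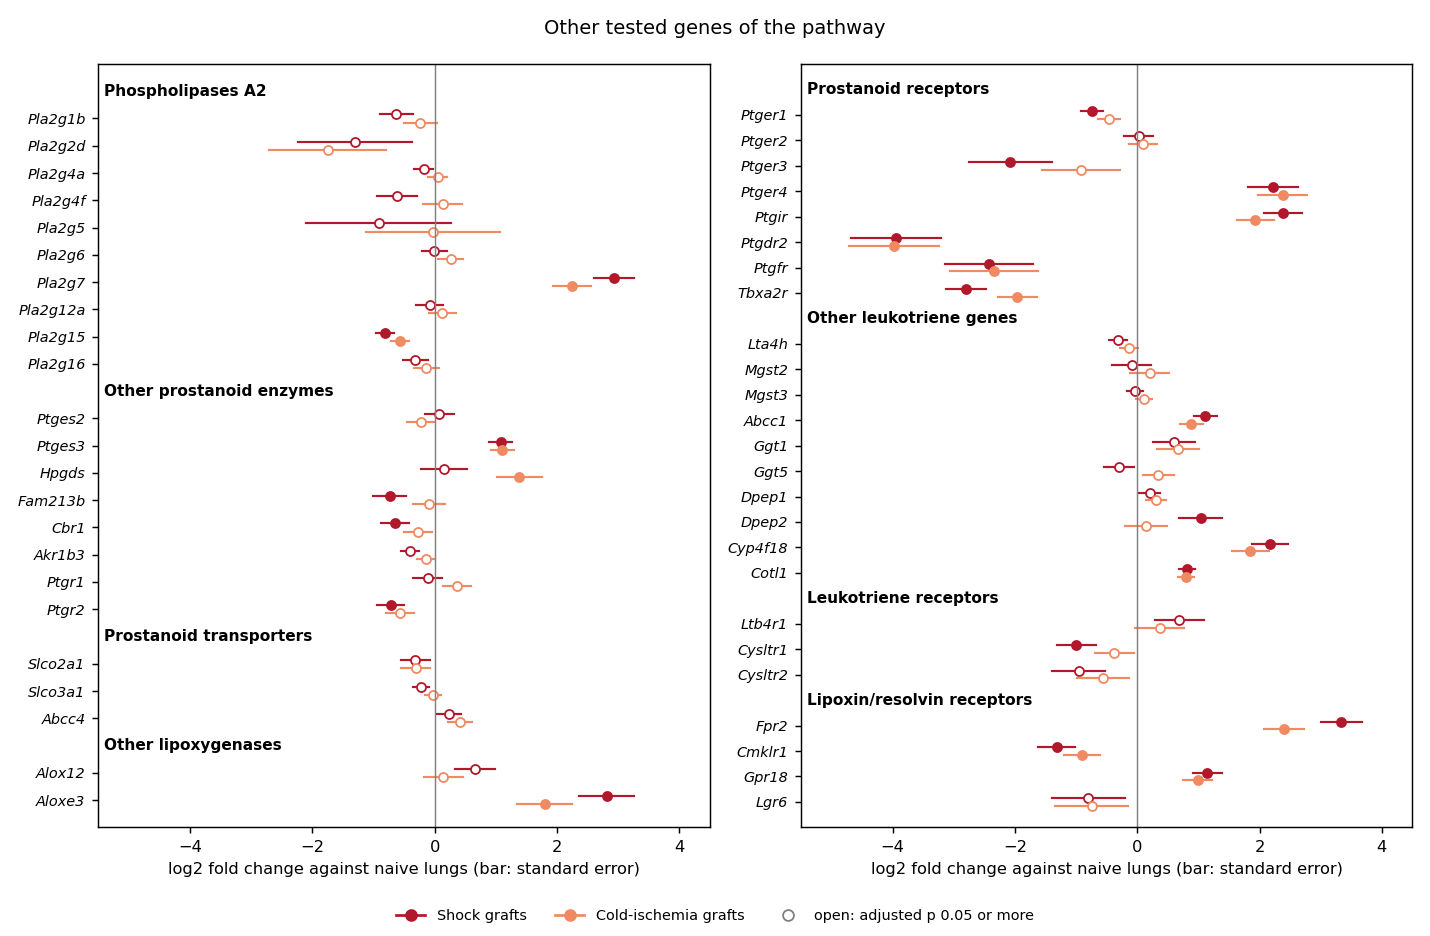
log2 fold changes against naive lungs, with standard errors, of the other tested genes of the pathway in shock grafts (red) and cold-ischemia grafts (orange); filled points passed an adjusted p of 0.05. Among prostanoid receptors Ptger4 and Ptgir lie above 0, whereas Tbxa2r, Ptgfr and Ptgdr2 lie below it.

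The genes whose profiles were most like each of the 10 were found by the root mean square difference of mean-centred log2 CPM over the 9 libraries, among 12958 genes. For Ptgs2 these were Gm6377, Atf3 and Zc3h12a, at differences of 0.34 to 0.36 against a range of 6.24 for Ptgs2 itself. Atf3, a stress-induced transcription factor, had 579, 286 and 224 CPM in shock grafts and 428, 298 and 428 CPM in cold-ischemia grafts, against 10.6, 5.02 and 7.49 CPM in naive lungs. For Ptges they were Inhbb, Tgm1 and Slc26a4, at 0.23 to 0.35 against a range of 5.06. Inhbb, a subunit of activin and inhibin, had 242, 507 and 178 CPM in shock grafts and 245.5, 254 and 107.8 CPM in cold-ischemia grafts, against 21.1, 21.7 and 21.9 CPM in naive lungs. Like Ptges, it was highest in shock replicate 2 and, among the grafts, lowest in cold-ischemia replicate 3. For Hpgd they were Dusp23, Rnf144a and Nkd2 (0.18 to 0.23, range 2.20), for Alox5 Srgap3, Itga4 and Tlr8 (0.13 to 0.16, range 1.59), and for Alox5ap Fam65b, Fxyd5 and Msrb1 (0.12 to 0.13, range 1.60). Those of Ptgs1 were Ahcy, Btk and Tlcd1, those of Ptgis 4931406C07Rik, Mapre2 and Gmpr, those of Tbxas1 Ski, Ube2l3 and Akap9, and those of Ptgds Cd3eap, Srm and Pop1.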

How the data were processed

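Total RNA of whole left lungs was sequenced from NEBNext Ultra II libraries on an Illumina NovaSeq, per the labels' protocols, in 9 libraries grouped by title. The submitters' processing notes name mm10, STAR, HTSeq, STAR-Fusion, edgeR and DESeq2, while versions, roles and the strand setting are not given in the sources used here. The authors deposited 3 tables with whole-number read counts, a normalized signal (counts over a size factor per library) and FPKM per gene; the p-value, adjusted p-value and log2 fold change of each comparison are the authors' own deposited results. The tables were joined by gene ID, and repeated libraries held 0 differing counts.

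Counts of all 9 libraries were fitted with edgeR 4.0.16 (R 4.3.3; TMM scaling, filterByExpr, quasi-likelihood test, two-sided, Benjamini-Hochberg over 15834 genes, threshold 0.05), after tests on simulated data. CPM used TMM-scaled library sizes. FPKM, which lacks that scaling, served to set genes side by side, and no FPKM difference between groups was tested. Alternatives were DESeq2 1.42.0, other scalings, no filter, the tables' grouping, left-out libraries and a replicate block. Replicates of 1 group differed by more than sampling noise. The 10 genes, pathway lists and motifs were chosen with earlier results of these data known. Named were all genes of lists of up to 5, and otherwise up to 3 called higher and 3 called lower with the smallest adjusted p at a mean of at least 1 CPM.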

Additional observations from a re-analysis of the deposited data

How the results depend on the processing

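Ptgs2 and Ptges kept their direction and their calls against naive lungs under every alternative run, and the lost or gained calls of Hpgd, Alox5, Alox5ap and Ptgis are given with those genes or, for the replicate block, with that fit. The count of the 10 genes called was 5 in grafts (4 to 6 with 1 library left out), 5 in shock grafts (3 to 6) and 4 in cold-ischemia grafts (2 to 5). Left out in turn, naive replicate 1 gave the lowest shock count and naive replicate 2 the lowest cold-ischemia count. All genes called fell as well, so these drops are not particular to the 10 genes. Without naive replicate 1 they went from 6319 to 4892 in shock grafts. Without naive replicate 2 they went from 4846 to 3371 in cold-ischemia grafts. In shock grafts against cold-ischemia grafts, all genes called numbered 0, but 8 under DESeq2, 124 under the grouping of the deposited tables and 39 without the 2 libraries of disputed group; the cause was not tested. Upper-quartile scaling moved the median log2 fold change of all genes to -0.25 in grafts, -0.28 in shock grafts and -0.22 in cold-ischemia grafts, against -0.05, -0.06 and -0.04 under TMM, and called genes that were higher made up 34.8, 36.5 and 39.3%, against 52.8, 55.1 and 57.1%.

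Signs turned only for values that had not passed the test. Upper-quartile scaling turned Ptgs1 (grafts -0.164, shock -0.008), Tbxas1 (grafts -0.116, shock -0.138, cold ischemia -0.094) and Ptgds (cold ischemia -0.127). In cold-ischemia grafts the tables' grouping gave Ptgds -0.036, and leaving out the 2 disputed libraries gave Ptgds -0.287 and Ptgis 0.009. In shock against cold-ischemia grafts the tables' grouping gave Hpgd 0.195, Ptgs2 0.088 and Tbxas1 0.165, leaving out the 2 disputed libraries gave Hpgd 0.064 and Tbxas1 0.115, and Tbxas1 was 0.005 under DESeq2 and 0.004 under RLE size factors. With 1 library left out, Ptgs1 ran over -0.128 to 0.169 in grafts and -0.122 to 0.471 in shock grafts, Tbxas1 over -0.026 to 0.139 and -0.143 to 0.187, Ptgds over -0.017 to 1.602 in shock and -0.289 to 0.234 in cold-ischemia grafts, Alox15 over -0.651 to 0.877 and Ptgis over -0.128 to 0.008 in cold-ischemia grafts. In shock against cold-ischemia grafts the ranges were Alox15 -0.098 to 1.65, Alox5 -0.192 to 0.304, Hpgd -0.663 to 0.202, Ptgds -0.069 to 1.548, Ptgs2 -0.481 to 0.019 and Tbxas1 -0.234 to 0.096.

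Replicate numbers did not pair the samples, with correlations of same-numbered deviations of -0.394 to 0.096. A replicate block gave 5, 5 and 3 called genes in grafts, shock and cold-ischemia grafts, the change being Hpgd in cold-ischemia grafts (-1.14, edgeR adjusted p = 0.0505). A fit of only the compared libraries was not run for grafts, which use all 9. At 7 to 41 reads for Ptgds and 7 to 149 for Alox15, depth limits what a difference can show.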

Other observations

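Hpgds, the other synthase of prostaglandin D, was chosen here after its values were seen. It had 2.26, 1.54 and 2.17 CPM in shock grafts and 7.44, 3.28 and 3.46 CPM in cold-ischemia grafts, against 2.32, 1.67 and 1.42 CPM in naive lungs. Its log2 fold change against naive lungs was 0.14 (edgeR adjusted p = 0.78) in shock grafts and 1.39 (edgeR adjusted p = 0.0157) in cold-ischemia grafts, and the difference between the graft groups, -1.24, did not pass (edgeR adjusted p = 0.671). Dpep2, a dipeptidase of leukotriene breakdown also chosen after its values were seen, had 16.1, 32.8 and 10.03 CPM in shock grafts and 9.66, 11.9 and 10.1 CPM in cold-ischemia grafts, against 10.01, 9.002 and 9.66 CPM in naive lungs, and rose in shock grafts by 1.04 on the log2 scale (edgeR adjusted p = 0.0346), a call lost under upper-quartile scaling (0.81, edgeR adjusted p = 0.0734). In all grafts Dpep2 gave 0.59 (edgeR adjusted p = 0.144) and passed without the 2 libraries of disputed group (0.70, edgeR adjusted p = 0.0401).

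The genes most like Alox15 over the 9 libraries were Ppbp, Tmprss13 and Itga2b, and Ppbp and Itga2b are known platelet genes. Their root mean square differences were 0.71, 0.83 and 0.85 on the log2 scale, against a range of 4.63 for Alox15 itself. Ppbp had 23.3, 5.43 and 9.80 CPM in shock grafts and 5.80, 5.98 and 11.2 CPM in cold-ischemia grafts, against 14.1, 5.34 and 2.76 CPM in naive lungs. Alox12, the platelet lipoxygenase, had 12.2, 5.23 and 9.13 CPM in shock grafts and 5.31, 5.53 and 7.80 CPM in cold-ischemia grafts, against 7.38, 4.98 and 4.501 CPM in naive lungs. Like Alox15, both were highest in shock replicate 1 and lowest in naive replicate 3. Ppbp was picked for its likeness, so the match is a description, and Alox15 rests on 7 to 149 reads per library.

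The secreted phospholipase Pla2g5 was also chosen after its values were seen and had 0 to 30 reads per library, so its pattern is a description and cannot decide between the groupings. It had 0, 0 and 0.723 CPM in shock grafts and 0.635, 0.0410 and 0.693 CPM in cold-ischemia grafts, against 0.200, 0.407 and 0.759 CPM in naive lungs. The lowest 3 libraries were shock replicates 1 and 2 and cold-ischemia replicate 2, which the deposited tables put in the same group. Under that grouping Pla2g5 was called lower in shock grafts than in cold-ischemia grafts (edgeR adjusted p = 0.0373), and under the titles it was not (edgeR adjusted p = 0.836).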
